A study of Mus musculus with 2 samples.

Results

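Meis2 cells without Fgf8 were 349 of 16841 kept cells in a pooled mouse single-cell library, selected on their own counts because they carried at least 2 UMIs of Meis2 and 0 UMIs of Fgf8. A UMI is a barcode read once per captured RNA molecule. The cells also had fewer than 3 UMIs summed over the mesodermal genes Mixl1, Mesp1, Lhx1 and Rspo3, and fewer than 5 summed over the collagen-matrix genes Col3a1, Col1a1, Col1a2 and Dcn. They made up 2.07% of the kept cells (exact binomial 95% interval 1.86 to 2.30%). A cell was kept from 1000 detected genes upward if no more than 10% of its UMIs were mitochondrial. The study described 2 samples of the mouse cell line Delmix, with 1 sample per group: embryoid bodies on day 2, made from epiblast stem cells, and untreated epiblast stem cells. Epiblast stem cells resemble the epiblast after implantation, and embryoid bodies are aggregates in which they differentiate. The counts of both lie in 1 matrix whose cell tags match no sample label, so no cell below is assigned to either sample.

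Meis2 encodes a homeodomain factor of the TALE class, which binds DNA together with Pbx and Hox proteins and is active in the neural plate, hindbrain and limb. Fgf8 is a secreted fibroblast growth factor made in the primitive streak, in the caudal epiblast and at the border of midbrain and hindbrain, and it is lost from cells that leave the caudal growth zone for the neural tube. Early neural tissue is known by the SOX factors Sox1 and Sox3 and by Fabp7, a fatty acid-binding protein of neural progenitors.

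3 sets of cells of the same matrix served for comparison, all under the same filters and, for the first and second, under the same mesodermal and collagen limits. They were 760 Meis2 cells with Fgf8 (at least 2 UMIs of Meis2 and at least 1 of Fgf8), 12516 cells at 0 UMIs of both genes, and the 16492 other kept cells, which contain the first and second sets. A further set of 530 collagen cells, with at least 5 UMIs of the 4 collagen-matrix genes, was chosen as cells that should lack neural genes. No limit on Meis2 or Fgf8 was set for it. Of the 530 cells, 111 had at least 2 UMIs of Meis2 and none of Fgf8, so the set is not a clean negative. The median depth was 6136 UMIs in Meis2 cells without Fgf8 (range 1631 to 28812), 6982.5 in Meis2 cells with Fgf8, 6352 in cells at 0 UMIs of both, 7403.5 in collagen cells and 6477.5 in all other kept cells. Levels are CPM, the UMIs of a gene summed over the cells of a set and scaled to a common total of 1000000 UMIs, with exact Poisson 95% intervals. Ratios are log2 values with 1 CPM added to both sides, with Meis2 cells without Fgf8 on top. No p-value was computed, because the cells come from 1 library and are not replicates, and all intervals cover counting error only. In such sums, fewer cells with a transcript and less transcript per cell cannot be told apart.

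The rule fixed the levels of Meis2, Fgf8, the 4 mesodermal genes and the 4 collagen-matrix genes, so these are description only. Meis2 stood at 2 UMIs in 139 members, 3 UMIs in 72, 4 or 5 UMIs in 73 and at least 6 UMIs in 65, with a highest count of 15. Just outside the rule lay 617 cells with 1 UMI of Meis2 and none of Fgf8, and 147 cells with 1 UMI of Fgf8 among the Meis2 cells. Before the 2 limits there were 481 cells with Meis2 and no Fgf8, of which 111 were over the collagen limit, 24 over the mesodermal limit and 3 over both. Of the 349 members, 299 had no mesodermal UMI and 304 no collagen-matrix UMI. At the mesodermal limit, 15 members had 2 UMIs, and 7 Meis2 cells without Fgf8 UMIs were left out with 3. At the collagen limit, 1 member had 4 UMIs, and 3 such cells were left out with 5.

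Sox1 and Fabp7 matched the neural label of these cells in sum, and Sox3 did so weakly. Fabp7 stood at 130 CPM (116 to 145) in Meis2 cells without Fgf8, against 25.2 CPM in Meis2 cells with Fgf8, 4.10 CPM in cells at 0 UMIs of both and 7.0 CPM in all other kept cells. Sox1 stood at 42.3 CPM (34.6 to 51.2), against 27.7 CPM in Meis2 cells with Fgf8, 2.22 CPM in cells at 0 UMIs of both and 4.2 CPM in all other kept cells. Sox3 reached 26.2 CPM (20.2 to 33.4), less than 2-fold above the 16 CPM of all other kept cells and below the 36.0 CPM of Meis2 cells with Fgf8. Of the 349 members 77 had a UMI of Sox1 (22.1%), 56 of Sox3 (16%) and 105 of Fabp7 (30.1%), and 304 had a UMI of at least 1 gene of the early neuroectoderm list. In Meis2 cells with Fgf8 the shares were 18.3% for Sox1, 23.7% for Sox3 and 15.4% for Fabp7, and in cells at 0 UMIs of both they were 1.49%, 8.63% and 1.06%. Scrublet, which marks likely droplets of 2 cells, called 77 members doublets (22.1%, 17.8 to 26.8%), against 17.8% of Meis2 cells with Fgf8, 10.2% of cells at 0 UMIs of both and 11.7% of all other kept cells. These cells were left in. Without called doublets in any set, Fabp7 stood at 168 CPM, Sox1 at 53.3 CPM and Sox3 at 28.5 CPM.

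**Figure D1:**
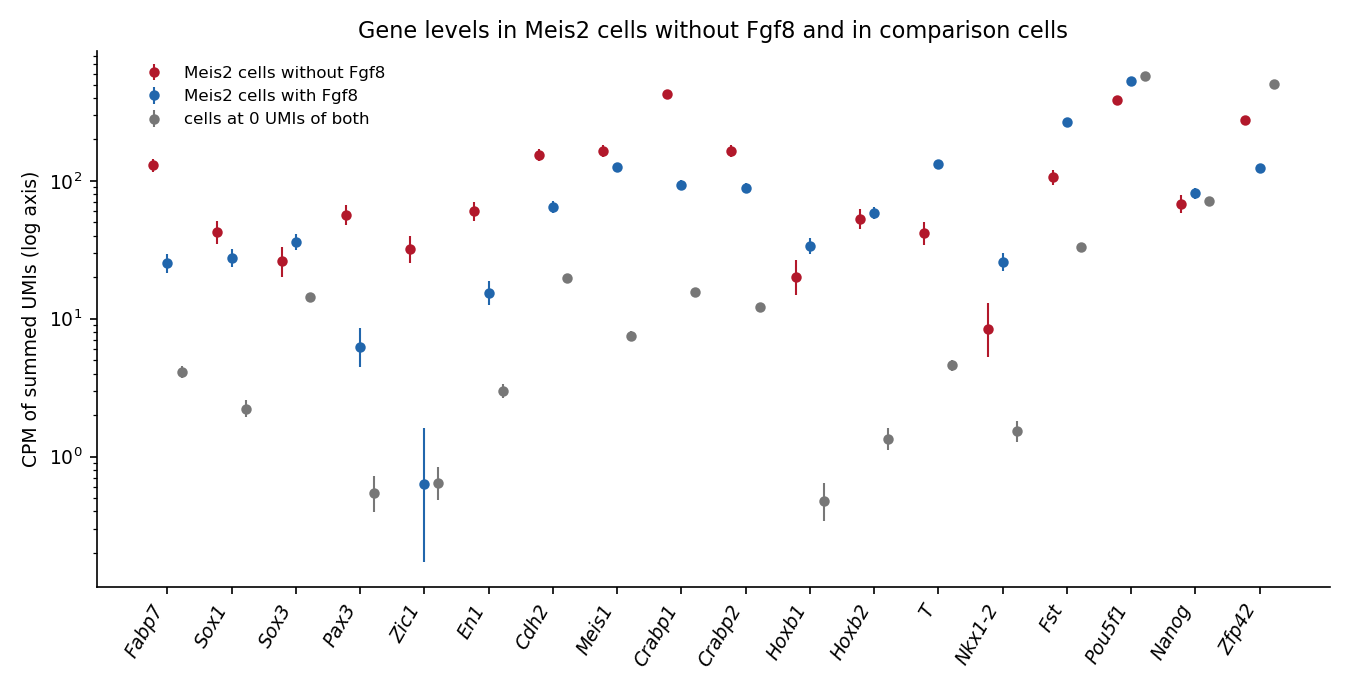
Levels of 18 genes, in CPM of summed UMIs on a log axis, in Meis2 cells without Fgf8 (red), Meis2 cells with Fgf8 (blue) and cells at 0 UMIs of both genes (grey); points are sums over cells and bars exact Poisson 95% intervals. The early neural genes Fabp7, Pax3, Zic1 and En1 are highest in Meis2 cells without Fgf8, while the early neural gene Sox3 and T, Nkx1-2 and Fst are highest in Meis2 cells with Fgf8.

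Against all other kept cells, Pax3, Mir99ahg, Fabp7 and Cdh6 had the highest ratios. Of 7246 genes with at least 20 CPM on either side, 283 were at least 2-fold higher (3.91%) and 37 at least 2-fold lower (0.511%), and the median log2 ratio of all these genes was 0.06. The counts depended on the cells included: with Meis2 at 1 UMI or more they were 63 higher and 19 lower, without called doublets 400 and 97, and without members of 6 or more UMIs of the naive pluripotency list 458 and 153. Pax3, a paired-box factor of the dorsal neural tube and neural crest, came first with 56.8 CPM (47.8 to 67.0) in Meis2 cells without Fgf8, against 1.38 CPM in all other kept cells (log2 ratio 4.6). Mir99ahg, a long transcript that hosts microRNAs, followed at 108 CPM against 5.36 CPM, ahead of Fabp7. Cdh6, a cadherin of the neural folds, stood at 79.3 CPM against 4.38 CPM. Robo2, a receptor for the Slit guidance proteins, stood at 66.8 CPM against 3.81 CPM, and Unc5c, a netrin receptor, at 52.7 CPM against 7.42 CPM. The transcription regulators Dach1 (196 against 17.6 CPM), En1 (59.99 against 5.16 CPM) and Npas3 (467 against 54.3 CPM) were among the 20 leading genes, as were Meis1 (165 against 21.3 CPM) and Hoxb2 (53.1 against 7.29 CPM). The retinoic acid-binding protein Crabp2 (165 against 22.4 CPM) and the secreted growth factor Ptn (251 against 39.1 CPM) also stood there. The other leading genes were Tmem132c, Slc8a1, Nnat, the netrin receptor Dcc, Meis2 itself, and the opposite-strand transcripts Hoxb3os and Nr6a1os. Strand use in the counting is not stated here, so Hoxb3os and Nr6a1os cannot be told apart from the genes they overlap. These sums rested on a part of the cells: the 35 members with most UMIs of a gene held 78.7% of the UMIs of Pax3, 69.9% of Fabp7, 86.8% of Cdh6 and 86.7% of Robo2, but 42.3% of Meis1 and 43.7% of Npas3.

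Promoters of 3 leading genes are shown, those of En1 and Cdh6 because Meis proteins are known to bind the hexamer TGACAG, and the promoter of Fabp7 because that gene is one of the markers of the neural label. Windows of 300 bases, 250 before and 50 after the gene start, were read from RefSeq (GRCm38.p6); 16 of the 20 leading genes had one. Capitals mark the hexamer, which reads CTGTCA where it lies on the opposite strand, and sequences run 5′ to 3′ along the gene. The window of En1 lies at chr1:120602237-120602536 on the plus strand, that of Cdh6 at chr15:13173626-13173925 on the minus strand and that of Fabp7 at chr10:57784673-57784972 on the plus strand.
En1: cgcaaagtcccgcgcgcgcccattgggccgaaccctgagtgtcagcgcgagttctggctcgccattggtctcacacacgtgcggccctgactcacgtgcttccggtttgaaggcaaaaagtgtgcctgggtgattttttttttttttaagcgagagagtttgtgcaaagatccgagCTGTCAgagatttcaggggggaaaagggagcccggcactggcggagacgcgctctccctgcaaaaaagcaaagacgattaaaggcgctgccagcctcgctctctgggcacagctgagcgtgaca
Cdh6: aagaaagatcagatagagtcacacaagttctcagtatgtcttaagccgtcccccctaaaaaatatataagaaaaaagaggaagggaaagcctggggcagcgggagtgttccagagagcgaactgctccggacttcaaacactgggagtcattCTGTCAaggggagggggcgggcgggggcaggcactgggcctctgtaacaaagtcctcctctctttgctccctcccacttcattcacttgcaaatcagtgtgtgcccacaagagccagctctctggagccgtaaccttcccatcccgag
Fabp7: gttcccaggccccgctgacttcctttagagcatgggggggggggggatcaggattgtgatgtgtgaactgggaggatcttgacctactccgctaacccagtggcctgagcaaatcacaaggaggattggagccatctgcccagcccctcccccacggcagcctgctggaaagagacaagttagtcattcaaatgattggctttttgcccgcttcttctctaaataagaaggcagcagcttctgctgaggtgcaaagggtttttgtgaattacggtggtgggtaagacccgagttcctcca
The hexamer, searched on both strands, was found in 4 of the 16 windows (25%), those of Cdh6, Dach1, En1 and Robo2. It was found in 5212 of 27025 windows of all genes (19.3%), so the share among the leading genes lay near that background. The window of Fabp7 does not hold these letters.

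The early neuroectoderm list had the most genes past 2-fold of the 31 lists. Of its 20 genes 12 had at least 20 CPM on either side, and 10 of these were at least 2-fold higher than in all other kept cells (Sox1, Sox21, Fabp7, Zic1, Zfp521, Irx3, Msi1, Rfx4, Ncam1 and Cdh2), with none 2-fold lower and a median log2 ratio of 2.52. Of all genes tested 3.91% were higher. However, 9 of the 12 reached 20 CPM in Meis2 cells without Fgf8 alone, so the minimum level itself favours a higher ratio for them. Summed over the list, Meis2 cells without Fgf8 had 773 CPM (738 to 808), Meis2 cells with Fgf8 420 CPM, cells at 0 UMIs of both 118 CPM, collagen cells 356 CPM and all other kept cells 167 CPM. Zic1, a zinc-finger factor of the dorsal neural plate, stood at 31.8 CPM (25.2 to 39.6), against 0.627 CPM in Meis2 cells with Fgf8. Rfx4, a winged-helix factor of neural progenitors, stood at 45.5 CPM, against 13.5 CPM in Meis2 cells with Fgf8 and 3.35 CPM in all other kept cells. Cdh2, the neural cadherin, stood at 153 CPM against 34.2 CPM in all other kept cells. Pax6, a factor of a later neural stage, was scarce, with 24 UMIs in 22 members (9.66 CPM). The anterior neural list held no gene past 2-fold among 1 with enough counts, Otx2, which stood at 41.9 CPM against 68.1 CPM in all other kept cells. Otx1, Rax, Emx2, Fezf1 and Fezf2 of that list were at 0 UMIs, which allows a share of cells with a UMI of up to 0.86% for each, at 3 counts of the 349 cells.

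SOX and ZIC factors showed the same direction. Of 16 genes 14 had enough counts, and 8 were at least 2-fold higher than in all other kept cells (Sox1, Sox4, Sox5, Sox6, Sox11, Sox13, Sox21 and Zic1), with none lower and a median log2 ratio of 1.41, where 7 of the 14 reached 20 CPM in Meis2 cells without Fgf8 alone. Sox11, a factor of neural progenitors and young neurons, stood at 409 CPM against 106 CPM and Sox4, its close relative, at 132 CPM against 49.1 CPM. Sox21 stood at 22.5 CPM against 1.41 CPM. Sox2, shared by pluripotent and neural cells, stood at 161 CPM against 191 CPM, and Zic2 at 32.6 CPM against 23.0 CPM.

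Patterning genes of the midbrain and hindbrain were higher in Meis2 cells without Fgf8 than in all other kept cells, but mostly not than in Meis2 cells with Fgf8. Of 15 genes of the list 6 had enough counts, and these 6 were at least 2-fold higher than in all other kept cells: En1, En2, Gbx2, Fgf15, Hoxb2 and Irx3. Of these 6, 5 reached 20 CPM in Meis2 cells without Fgf8 alone, so the count carries little. En1 and En2 encode the engrailed factors of the midbrain and hindbrain border, and En2 stood at 25.4 CPM (19.5 to 32.5), against 3.60 CPM in Meis2 cells with Fgf8 and 4.28 CPM in all other kept cells. Gbx2, a factor of the anterior hindbrain, stood at 22.1 CPM, against 27.4 CPM in Meis2 cells with Fgf8 and 8.91 CPM in all other kept cells. Fgf15, a fibroblast growth factor of the neural tube, stood at 64.8 CPM, against 88.1 CPM in Meis2 cells with Fgf8. Pax2 and Pax7, below the minimum of 20 CPM, stood at 15.7 CPM and 8.46 CPM in Meis2 cells without Fgf8, against 2.35 CPM and 0.157 CPM in Meis2 cells with Fgf8. Wnt1, a signal of the midbrain and hindbrain border, was found in 3 members with 7 UMIs in all.

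Retinoic acid, a signal made by the trunk mesoderm, is carried in cells by Crabp1 and Crabp2 and induces anterior Hox and Meis genes. Of 19 genes of the retinoic acid response list 8 had enough counts, and Crabp1, Crabp2, Hoxb1, Tshz1 and Meis1 were at least 2-fold higher than in all other kept cells, with a median log2 ratio of 2.19. Of these 8 genes, 2 reached 20 CPM in Meis2 cells without Fgf8 alone. Crabp1 stood at 429 CPM (404 to 456) in Meis2 cells without Fgf8, against 93.1 CPM in Meis2 cells with Fgf8, 15.7 CPM in cells at 0 UMIs of both and 90.2 CPM in all other kept cells. In collagen cells it was higher still, at 1749 CPM. Cyp26a1, which degrades retinoic acid, had 4 UMIs in 3 members. Rarb, a receptor induced by retinoic acid, stood at 6.84 CPM, against 2.66 CPM in Meis2 cells with Fgf8.

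Partners of Meis2 were shared with the Meis2 cells with Fgf8. Of 11 TALE genes 8 had enough counts, and 5 were at least 2-fold higher than in all other kept cells, among them Meis1, Meis2, Pbx3 and Pknox2, with a median log2 ratio of 1.27. Of these 8 genes, 1 reached 20 CPM in Meis2 cells without Fgf8 alone. Meis2 itself was fixed by the rule and stands in the count of 5 and in the median, so both are in part set by the choice of cells. Of all genes tested 3.91% were higher than in all other kept cells. Pbx3 stood at 289 CPM, against 269 CPM in Meis2 cells with Fgf8 and 137 CPM in all other kept cells. Pknox2 stood at 46.3 CPM, against 47.3 CPM in Meis2 cells with Fgf8 and 2.28 CPM in cells at 0 UMIs of both. Against Meis2 cells with Fgf8 none of the 8 tested TALE genes passed 2-fold either way. Meis2 stood at 545 CPM there, against 567 CPM in Meis2 cells with Fgf8.

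Hox genes, which mark position along the body axis by their paralogue number, differed between the 2 sets of Meis2 cells mainly in the middle and posterior paralogues. Paralogues 1 to 4 (12 genes) summed to 144 CPM (129 to 159) in Meis2 cells without Fgf8, against 140 CPM (131 to 150) in Meis2 cells with Fgf8 and 5.04 CPM in cells at 0 UMIs of both. Paralogues 5 to 9 (15 genes) summed to 74.1 CPM (63.8 to 85.6), against 17.7 CPM (14.6 to 21.3) in Meis2 cells with Fgf8. Paralogues 10 to 13 (12 genes) summed to 29.4 CPM (23.0 to 37.0), against 5.96 CPM (4.21 to 8.17) in Meis2 cells with Fgf8. At least 1 UMI of paralogues 5 to 9 was found in 80 of 349 Meis2 cells without Fgf8, against 76 of 760 Meis2 cells with Fgf8. Hoxa9 stood at 18.5 CPM against 4.86 CPM, Hoxb9 at 11.7 CPM against 1.10 CPM and Hoxa10 at 13.7 CPM against 4.07 CPM in Meis2 cells with Fgf8. Hoxb1, of the caudal epiblast and the hindbrain, went the other way, with 20.1 CPM against 33.9 CPM. Collagen cells carried 177 CPM of paralogues 5 to 9 and 71.4 CPM of paralogues 10 to 13, so these RNAs were not restricted to Meis2 cells. Whether material of collagen cells has a part in the Hox levels of Meis2 cells without Fgf8 was not tested; without called doublets, paralogues 5 to 9 stood at 82.4 CPM. Of the 39 Hox genes, Hoxa6, Hoxd11 and Hoxd12 were at 0 UMIs.

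Of 7228 genes, 153 were at least 2-fold higher in Meis2 cells without Fgf8 (2.12%) and 34 at least 2-fold lower (0.47%), with a median log2 ratio of 0.04. Without called doublets 290 were higher and 55 lower, and without members of 6 or more naive UMIs 227 were higher and 20 lower. The highest ratios were those of Robo2 (66.8 CPM against 1.88 CPM, log2 ratio 4.56), Mir99ahg (108 CPM against 5.01 CPM) and Mir100hg, a microRNA host transcript (55.6 CPM against 3.76 CPM). Cdh6, Unc5c, Pax3 (56.8 CPM against 6.27 CPM), Dcc, Adgrl3, Nrg1, Fabp7, Ctnna2 and Crabp1 followed, then Spp1, Prkg1 and Fmn2. Dcc and Spp1 rested on few cells: 136 of the 141 UMIs of Dcc lay in 7 members, and 170 of the 478 UMIs of Spp1 lay in 1 member. The log2 ratio of Dcc was 2.99, and -0.43 without 24 members with at least 10 UMIs of the neuron list. That list holds Dcc, and the 14 Meis2 cells with Fgf8 at the same limit stayed in, so the fall was set by the choice of cells. Adgrl3, an adhesion receptor of neurons, stood at 67.6 CPM against 7.68 CPM, Nrg1, a growth factor of the EGF family, at 73.3 CPM against 10.5 CPM, and Ctnna2, a neural catenin, at 73.3 CPM against 15 CPM. Of the early neuroectoderm list 5 of 12 tested genes were at least 2-fold higher (Sox21, Fabp7, Zic1, Rfx4 and Cdh2) and none lower, with a median log2 ratio of 0.67. Sox21, Zic1 and Rfx4 were under 20 CPM in Meis2 cells with Fgf8, so the minimum level itself favours a higher ratio for them. Sox1 and Irx3 did not pass 2-fold between these sets.

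On the lower side against Meis2 cells with Fgf8 stood genes of the caudal epiblast and primitive streak. Fgf8 itself was fixed at 0 by the rule. T, the brachyury factor of the streak and of neuromesodermal progenitors, stood at 41.9 CPM (34.2 to 50.7) in Meis2 cells without Fgf8, against 132 CPM in Meis2 cells with Fgf8 and 4.58 CPM in cells at 0 UMIs of both. Of 18 caudal epiblast genes 7 had enough counts, and T, Nkx1-2 and Wnt8a were at least 2-fold lower, with none higher. Nkx1-2, a homeobox gene of the caudal lateral epiblast, stood at 8.46 CPM against 25.9 CPM, and Wnt8a at 12.9 CPM against 39.6 CPM. Both reached 20 CPM in Meis2 cells with Fgf8 alone, so the minimum level itself favours a lower ratio for them. Fst, which encodes the activin antagonist follistatin, stood at 106 CPM against 269 CPM, and Epha4, an ephrin receptor, at 112 CPM against 228 CPM. Dscam, a neural adhesion molecule (14.9 CPM against 76.2 CPM), and Apln, the ligand apelin (13.3 CPM against 53.4 CPM), were also among the 15 lowest. So were Psmb10, Car2, Prickle1, Il1rapl1, Rerg, Cdh13, Shb, Parp12 and Chn2, at log2 ratios of -1.14 to -1.45. Cdx2 stood at 5.23 CPM against 5.33 CPM, and Tbx6, of the paraxial mesoderm, had 3 UMIs in Meis2 cells without Fgf8. Cells just outside the rule lay between: with 1 UMI of Fgf8, Meis2 cells had 72.3 CPM of T, 36.1 CPM of Fabp7 and 12.6 CPM of Pax3.

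Against cells at 0 UMIs of both genes, 394 of 7264 genes were at least 2-fold higher (5.42%) and 56 at least 2-fold lower (0.771%), with a median log2 ratio of 0.07. Without called doublets 527 were higher and 137 lower. Of the naive pluripotency list 3 of 14 tested genes were at least 2-fold lower (Esrrb, Dppa3 and Dppa5a) and none higher, and of the core pluripotency list none of 10 passed 2-fold. The 17 genes of the naive pluripotency list summed to 2398 CPM (2338 to 2460) in Meis2 cells without Fgf8, 1412 CPM in Meis2 cells with Fgf8 and 4832 CPM in cells at 0 UMIs of both. Zfp42, also called Rex1, stood at 275 CPM, against 125 CPM in Meis2 cells with Fgf8 and 507 CPM in cells at 0 UMIs of both. Its log2 ratio to Meis2 cells with Fgf8 was 1.14, and 2.13 without called doublets in either set. It was -0.70 without 76 members of 6 or more naive UMIs. The naive list holds Zfp42, and the 79 Meis2 cells with Fgf8 at 6 or more naive UMIs stayed in. That fall was therefore set by the choice of cells and settles no direction. Dppa5a stood at 1440 CPM, against 858 CPM in Meis2 cells with Fgf8 and 3078 CPM in cells at 0 UMIs of both. Dppa3, an oocyte and germline factor, was the one gene of the list 2-fold lower than in all other kept cells (38.7 CPM against 94.6 CPM); without called doublets 6 were. Pou5f1, which encodes Oct4, stood at 387 CPM, against 527 CPM in Meis2 cells with Fgf8 and 581 CPM in cells at 0 UMIs of both. None of the 10 core pluripotency genes passed 2-fold against all other kept cells either. Of 18 primed epiblast genes 17 had enough counts, and Sall2, Cdh2 and Epha4 were 2-fold higher than in all other kept cells. The adhesion molecules of epithelia Cdh1 and Epcam stood at 141 CPM and 207 CPM, against 220 CPM and 388 CPM in cells at 0 UMIs of both.

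Shares of cells with a UMI, with each cell thinned to 2000 UMIs, showed which genes set the members apart from collagen cells. Fabp7 was found in 63 of 341 Meis2 cells without Fgf8 (18.5%, exact binomial 95% interval 14.5 to 23.0%), in 5.01% of Meis2 cells with Fgf8, in 0.497% of cells at 0 UMIs of both and in 0.568% of collagen cells. Pax3 was found in 11.1% of Meis2 cells without Fgf8, 1.19% of Meis2 cells with Fgf8 and 0.568% of collagen cells. Sox1 was found in 9.09% of Meis2 cells without Fgf8, 5.15% of Meis2 cells with Fgf8 and 0.568% of collagen cells. Sox3 was found in 4.69% of Meis2 cells without Fgf8, 7.12% of Meis2 cells with Fgf8 and 2.93% of cells at 0 UMIs of both. Other leading genes were also found in collagen cells: Mir99ahg in 17.0% of Meis2 cells without Fgf8 and 13.4% of collagen cells, En1 in 10.6% and 7.01%, Robo2 in 10.9% and 5.49%, and Crabp1 in 22% and 61.2%. Before thinning, Fabp7 was found in 30.1% of Meis2 cells without Fgf8 and 1.89% of collagen cells, at median depths of 6136 and 7403.5 UMIs. Thinning left out 8 members, 2 Meis2 cells with Fgf8, 251 cells at 0 UMIs of both and 2 collagen cells.

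**Figure D2:**
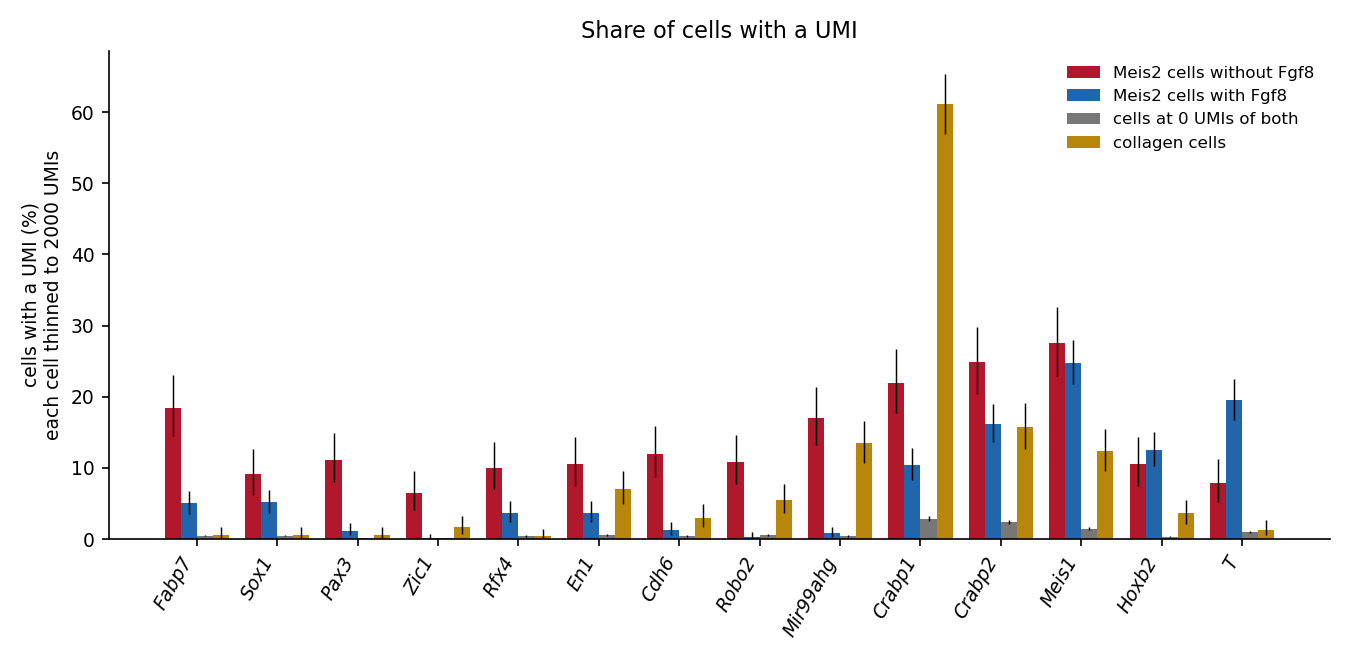
Share of cells with at least 1 UMI, in percent, after thinning each cell to 2000 UMIs, for 14 genes in Meis2 cells without Fgf8 (red), Meis2 cells with Fgf8 (blue), cells at 0 UMIs of both (grey) and collagen cells (gold); bars are shares with exact binomial 95% intervals. Fabp7, Sox1, Pax3 and Rfx4 are near 0 in collagen cells, whereas Crabp1 is found in 61.2% of them.

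Levels followed the number of Meis2 UMIs within the rule and below it. From 0 and 1 UMI outside the rule to 2, 3, 4 or 5 and at least 6 UMIs inside it, Meis1 stood at 7.50, 29.3, 75.3, 128, 247 and 290 CPM. Npas3 stood at 27.9, 72.1, 181, 376, 726 and 830 CPM over the same steps. Crabp2 stood at 12.1, 28.4, 104, 119, 224 and 269 CPM. Sox1 stood at 2.22, 6.70, 25.5, 23.0, 61.3 and 74.4 CPM, and Fabp7 at 4.10, 27.9, 110, 121, 117 and 189 CPM, so Fabp7 was nearly level from 2 to 5 UMIs. T stood at 4.58, 11.2, 23.3, 24.9, 92.0 and 42.2 CPM, without a steady order inside the rule. Pou5f1 stood at 581, 536, 458, 349, 341 and 338 CPM. The median depth of the 4 steps inside the rule was 6066, 5784.5, 6024 and 7007 UMIs, and called doublets made up 20.1, 25, 23.3 and 21.5% of them.

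**Figure D3:**
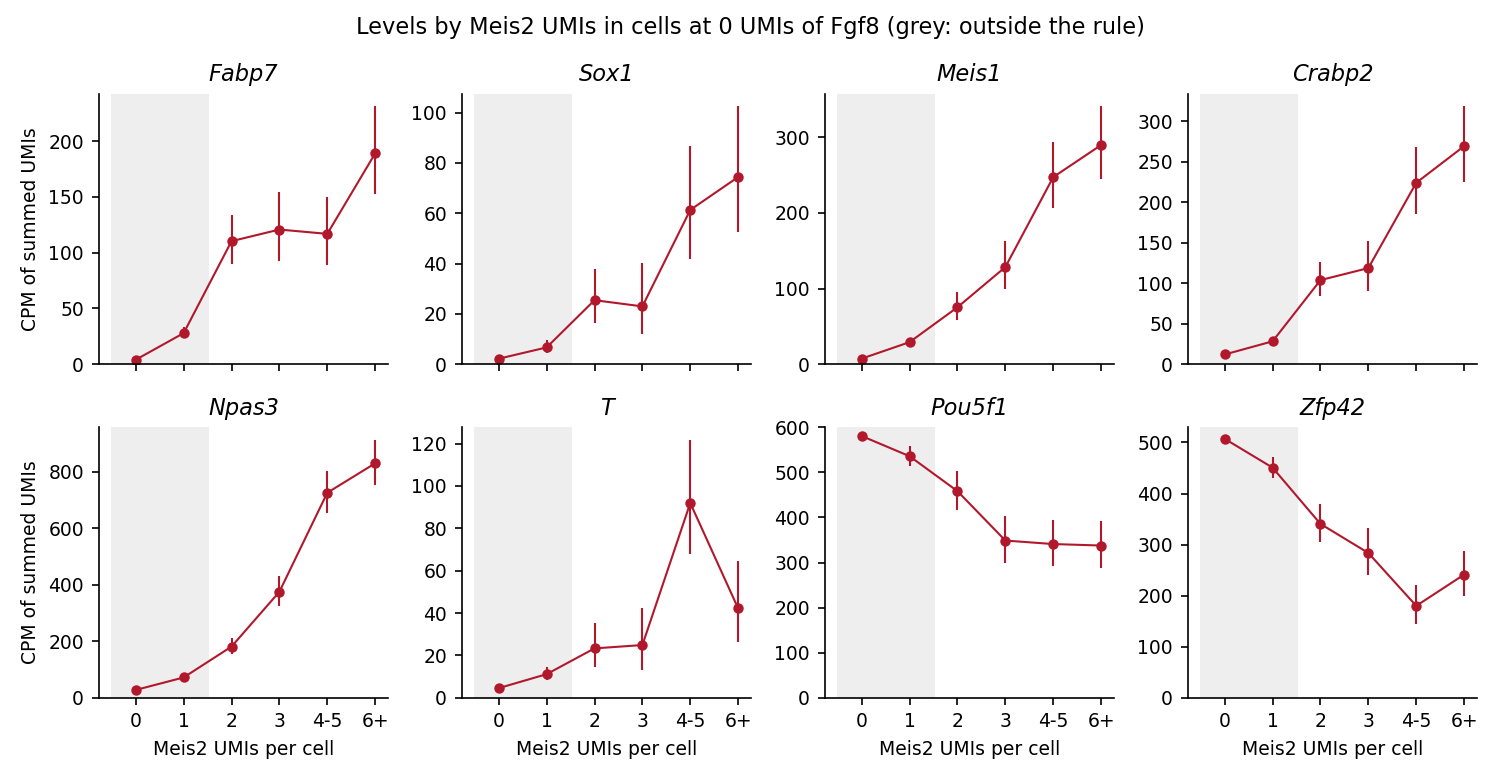
Levels of 8 genes, in CPM of summed UMIs with exact Poisson 95% intervals, in cells at 0 UMIs of Fgf8 by their number of Meis2 UMIs; the grey area marks 0 and 1 UMI, outside the rule. Meis1, Npas3 and Crabp2 are higher at each step, and Pou5f1 is lower from 0 to 3 UMIs and then level.

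Levels varied among the members. Split by their UMIs of the early neuroectoderm list after thinning to 2000 UMIs, a split chosen after the values were seen, 124 members had 0, 113 had 1 or 2 and 104 had at least 3. The limit of 3 fell in a continuous range, with 44 members at 2 UMIs and 36 at 3, so the strata are ranges and not types. Genes outside the list followed it. From 0 over 1 or 2 to at least 3 neural UMIs, Crabp1 stood at 43.9, 421 and 1194 CPM, Pax3 at 13.4, 50.8 and 151 CPM and En1 at 10.5, 56.5 and 159 CPM. Mir99ahg stood at 26.7, 80.2 and 299 CPM, Meis1 at 59.1, 193 and 314 CPM and Hoxb2 at 12.4, 65.5 and 114 CPM. Pou5f1 stood at 480, 420 and 157 CPM, Epcam at 275, 195 and 101 CPM and T at 31.5, 55.3 and 41.1 CPM. Paralogues 1 to 4 of the Hox genes stood at 54.4, 152 and 301 CPM, whereas paralogues 10 to 13 stood at 26.7, 27.1 and 39.2 CPM with overlapping intervals. Called doublets made up 29.0, 30.1 and 6.73% of these strata, and the median depth was 7447, 6855 and 4385.5 UMIs. The part of depth and doublets in these differences was not tested.

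Naive pluripotency RNA lay mostly in other members than neural RNA. Of the 341 thinned members, 76 had at least 6 UMIs of the naive list, of which 47.4% were called doublets, with a median depth of 8831.5 UMIs. The other 265 had 15.5% called doublets and a median depth of 5639 UMIs. Only 6 of the 76 had at least 3 early neural UMIs, whereas 98 of the other 265 did. In the 76 cells Zfp42 stood at 737 CPM, Klf2 at 591 CPM and Fabp7 at 60.2 CPM, and in the other 265 cells Zfp42 stood at 76.1 CPM, Klf2 at 71.5 CPM and Fabp7 at 161 CPM. Zfp42 and Klf2 are in the naive list that chose the 76 cells, so the split fixed their direction and they are description only. Whether these 76 droplets hold 1 cell or 2 was not tested. A further 77 members had neither any early neural UMI nor 6 naive UMIs.

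**Figure D4:**
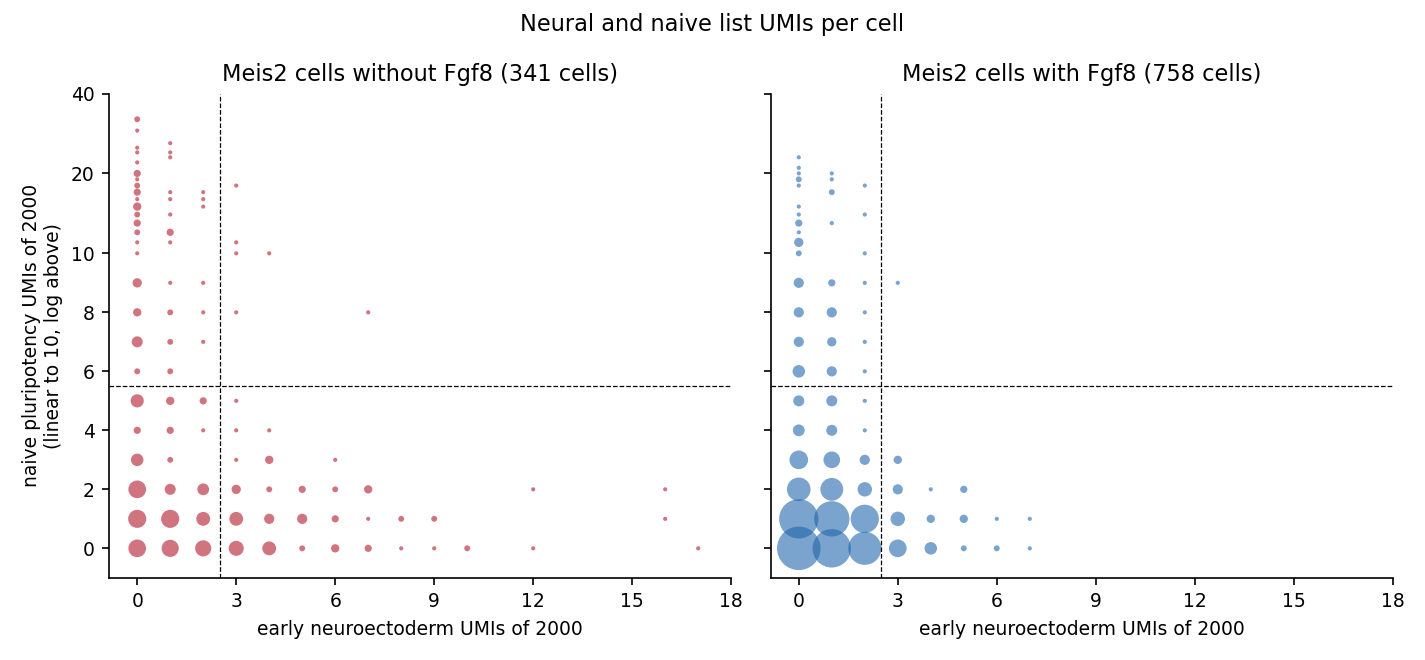
UMIs of the naive pluripotency list (vertical, linear to 10 and log above) against UMIs of the early neuroectoderm list (horizontal) in cells thinned to 2000 UMIs, for 341 Meis2 cells without Fgf8 (left) and 758 Meis2 cells with Fgf8 (right); the area of a point is the number of cells at that value, and dashed lines mark 3 neural and 6 naive UMIs. Members spread along both axes, with 6 cells over both lines.

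Splits on single genes also gave different levels among the members. Sox1, Rfx4 and Fabp7 stand in the early neuroectoderm list, so their agreement with the split on that list is in part built in. Members with a UMI of Sox1 (77 cells) had 111 CPM of Rfx4, 107 CPM of Pax3 and 879 CPM of Crabp1, and the 272 members without had 27.3 CPM of Rfx4, 42.7 CPM of Pax3 and 304 CPM of Crabp1. Members with a UMI of Pou5f1 (228 cells) had 62.8 CPM of Fabp7 and 19.9 CPM of Pax3, and the 121 without had 379 CPM of Fabp7 and 194 CPM of Pax3. The cells without Pou5f1 were shallower, with a median of 4097 UMIs against 7569.5 UMIs in the cells with it, and 2.48% of them were called doublets, against 32.5%. Members with a UMI of T (52 cells) had 227 CPM of Epha4, 193 CPM of Fst and 45.9 CPM of Fabp7, and the 297 without had 87.4 CPM of Epha4, 87.9 CPM of Fst and 147 CPM of Fabp7. Sox1, of the neural plate, and T, of the caudal epiblast, shared 8 cells: T was found in 10.4% of the 77 cells with Sox1 and in 16.2% of the 272 without. Fabp7 and Pax3 shared 39 cells: Pax3 was found in 37.1% of the 105 cells with Fabp7 and in 10.2% of the 244 without. En1 was found in 27.0% of the 89 cells with Hoxb2 and in 20% of the 260 without.

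Neuronal genes rested on few cells. Of 17 neuron genes 6 had enough counts, and Dcc, Map2 and Nrxn3 were at least 2-fold higher than in all other kept cells. Of these 6 genes, 2 reached 20 CPM in Meis2 cells without Fgf8 alone. The 60 UMIs of Nrxn3, a synaptic adhesion molecule, lay in 11 members with up to 31 in 1 cell. The 24 members with at least 10 UMIs of the list held 44.3% of its UMIs. Map2, a dendrite protein, was broader, with 117 UMIs in 71 members (47.1 CPM, against 13 CPM in Meis2 cells with Fgf8). Tubb3, the neuronal tubulin, stood at 95.8 CPM, against 43.7 CPM in Meis2 cells with Fgf8 and 48.4 CPM in all other kept cells. Dcx, a protein of migrating neurons, had 25 UMIs in 17 members.

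Markers of other cell types follow. Of 14 neural crest and border genes 3 had enough counts, and Pax3 was the 1 past 2-fold, while Sox10 had 2 UMIs, Snai2 5 UMIs and Dlx5 none. The crest list summed to 205 CPM in Meis2 cells without Fgf8, 112 CPM in Meis2 cells with Fgf8 and 284 CPM in collagen cells. Of the paraxial mesoderm list Pax3 was again the 1 gene past 2-fold, of 2 with enough counts, and Msgn1 and Mesp2 were at 0. Pax3 reached 20 CPM in Meis2 cells without Fgf8 alone, so the minimum level itself favours a higher ratio for it in both lists. Of the lateral mesoderm list 1 of 17 genes had enough counts, of the endoderm list 1 of 11 and of the epithelial keratin list 10 of 12, and none of these passed 2-fold against all other kept cells. Sox17, of the endoderm list, was at 0 UMIs. The fibroblast list held 6 of 7 tested genes at least 2-fold lower than in all other kept cells (Col1a1, Col1a2, Col3a1, Dcn, Mmp3 and S100a4), where the collagen limit fixes the 4 matrix genes. Against the sets under the same limit the sum of the list was higher, with 251 CPM in Meis2 cells without Fgf8, 80.1 CPM in Meis2 cells with Fgf8 and 161 CPM in cells at 0 UMIs of both. Spp1 alone made up most of each sum, at 192, 41.5 and 134 CPM in these sets. Of its 478 UMIs in Meis2 cells without Fgf8, 170 lay in 1 cell. At least 10 UMIs of it were found in 7 of 349 Meis2 cells without Fgf8 (2.01%), 0.789% of Meis2 cells with Fgf8 and 0.911% of cells at 0 UMIs of both. After Fgf8, the 9 lowest ratios were those of Mmp3, Ccl7, Col3a1, Col1a1, Ccl2, Ly6a, Col1a2, S100a6 and Dppa3. S100a6, a calcium-binding protein, stood at 156 CPM, against 12433 CPM in collagen cells and 641 CPM in all other kept cells. Spp1, a gene of that list, stood at 192 CPM against 41.5 CPM in Meis2 cells with Fgf8, and the macrophage gene Lyz2 had 118 UMIs in 5 members with up to 60 in 1.

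Signalling targets differed less. Of 13 FGF and ERK feedback genes 11 had enough counts, and Spry1, Spry2 and Il17rd were at least 2-fold higher than in all other kept cells, with a median log2 ratio of 0.73; without called doublets 5 were. Although the cells had no Fgf8 UMI, the list summed to 914 CPM (877 to 952), against 874 CPM in Meis2 cells with Fgf8 and 617 CPM in cells at 0 UMIs of both. Spry1, an inhibitor of receptor signalling, stood at 28.6 CPM, against 7.05 CPM in Meis2 cells with Fgf8. Dusp6, an ERK phosphatase, stood at 63.6 CPM against 48.9 CPM, and Etv4, an ETS factor, at 21.7 CPM against 12.1 CPM. Of 19 NOTCH and hedgehog genes 10 had enough counts, and Gli2, Gli3, Boc and Cdon were at least 2-fold higher than in all other kept cells. Boc, a hedgehog co-receptor, stood at 22.9 CPM, against 3.45 CPM in Meis2 cells with Fgf8. Of 16 WNT target genes 8 had enough counts and Sp8, Nkd1 and T were past 2-fold, and of 14 BMP and NODAL target genes 9 had enough counts and Id2 was (170 CPM against 69.1 CPM). In Meis2 cells without Fgf8 alone, 3 of the 11 FGF and ERK genes and 4 of the 10 NOTCH and hedgehog genes reached 20 CPM. So did 4 of the 8 WNT genes and 1 of the 9 BMP and NODAL genes. For such genes the minimum level itself favours a higher ratio, and of all genes tested 3.91% were higher. No gene of the 20 S phase and 20 G2/M phase genes passed 2-fold either way, and the 2 lists summed to 2969 CPM and 3122 CPM, against 3117 CPM and 3175 CPM in Meis2 cells with Fgf8.

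The cell tags, oligonucleotides that mark the samples of a pool, sorted hardly any cell of the matrix. According to the authors' deposited tag table, 348 of the 349 members were unassigned (99.7%) and 1 was given to CMO311, against 759 of 760 Meis2 cells with Fgf8 and 16788 of all 16841 kept cells unassigned (99.7%). The median count of CMO311 was 2273 UMIs in Meis2 cells without Fgf8, 2682.5 in Meis2 cells with Fgf8, 982 in cells at 0 UMIs of both and 830 in 72027 cell-free droplets of 150 to 300 UMIs. The median count of CMO312 was 366, 313.5, 403 and 340 UMIs in the same sets. CMO311 exceeded CMO312 in 79.9% of Meis2 cells without Fgf8, 93.4% of Meis2 cells with Fgf8 and 76.2% of cells at 0 UMIs of both. Within the members, CMO311 moved with the neural list: its median was 1282.5, 2511 and 3301 UMIs at 0, at 1 or 2 and at least 3 early neural UMIs. It was 948 UMIs in the 47 members with no early neural UMI and at least 6 naive UMIs. Which sample either tag marks was not tested, so these medians assign no member to embryoid bodies or to epiblast stem cells.

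**Figure D5:**
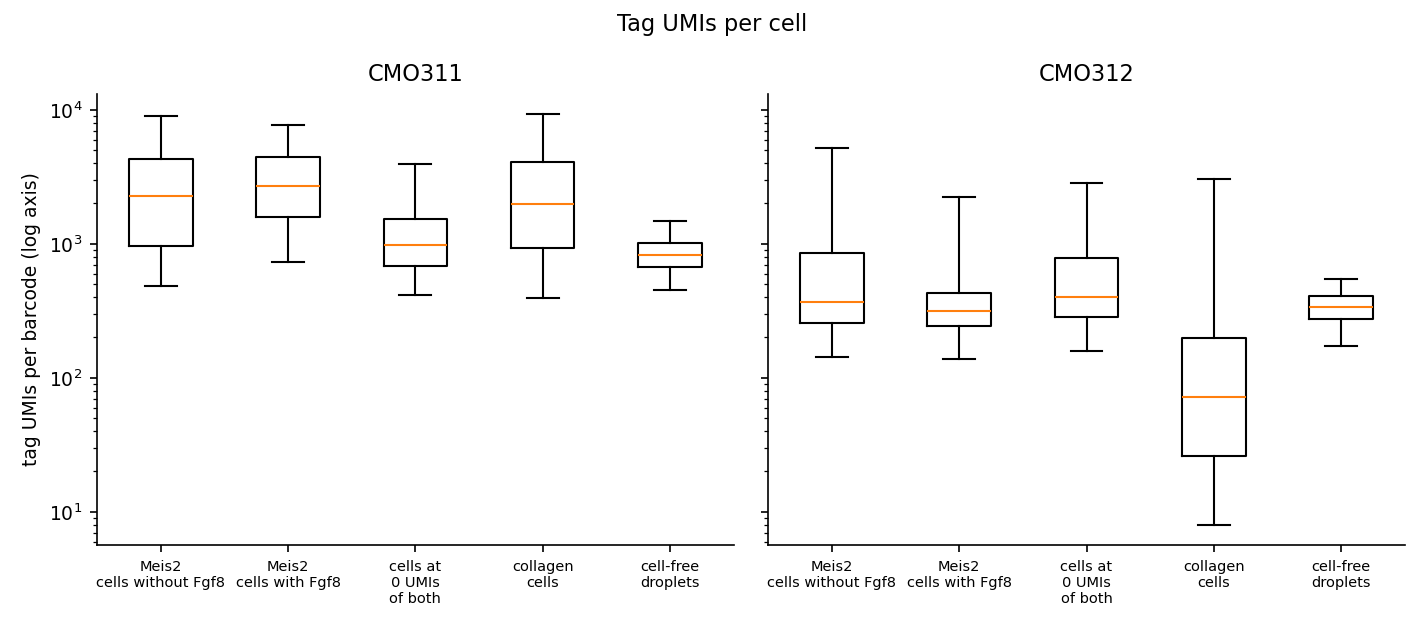
UMIs of the tags CMO311 (left) and CMO312 (right) per barcode, on a log axis, in Meis2 cells without Fgf8, Meis2 cells with Fgf8, cells at 0 UMIs of both, collagen cells and cell-free droplets; boxes are quartiles with the median, whiskers the 5th and 95th percentiles. The CMO311 median of Meis2 cells without Fgf8 (2273) lies above that of cell-free droplets (830), while the CMO312 medians (366 and 340) are close.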

How the data were processed

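Droplet single-cell RNA sequencing with 3' chemistry was described for 2 samples. Raw UMI counts of each gene in each barcode stand in the deposited matrix, whose header names Cell Ranger 8.0.1; the submitters' processing notes also name Seurat. No source used here gives the genome build. For 21593 called cells, the authors deposited a tag assignment and log10 tag counts; for CMO311 these equalled log10 of tag UMIs plus 1 in all 21593 cells (tolerance 1e-06). The labels describe a channel per sample, whereas the counts lie in 1 matrix with 2 tag names that match no label, so the matrix was treated as 1 sample. Filters left 16841 cells (78.0%); 3345 had too few genes and 4308 too many mitochondrial UMIs, and some had both.

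UMIs were summed per set and scaled to CPM (Python 3.11.15, numpy 2.4.6, scipy 1.17.1); a gene counted as higher or lower at a ratio of 2 with at least 20 CPM on the higher side. Scrublet (scanpy 1.11.5, expected rate 0.1) called 2012 kept cells doublets (11.9%), which were left in. Free RNA was not removed. The fold calls were tested on simulated counts. Named were the 20 highest and 10 lowest genes against all other kept cells, the 15 each way against Meis2 cells with Fgf8 (at least 50 CPM; provisional, mitochondrial and ribosomal protein names left out), fixed marker genes, and up to 6 members per list. Other genes named were chosen after their values were seen, among them Pax2, Pax7, Wnt1, Rarb, Dusp6, Etv4, Dcx, Tmsb4x and the genes printed within strata, as were the sums over Hox paralogues. The members, the 31 lists and the marker genes were chosen with earlier results of these data known, and lists overlap (T, Pax3 and Cdh2 stand in more than 1). Zscan4a, of 419 distinct list genes, was not found under that symbol. Some genes that the naming rule gives are not reported here.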

Additional observations from a re-analysis of the deposited data

Results flagged for a closer look

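The tag CMO311 lies outside the gene measurements and was above the level of cell-free droplets in Meis2 cells without Fgf8, with a median of 2273 UMIs against 830 UMIs. Of the 349 members, 242 (69.3%) exceeded the 90th percentile of the droplets (1228 UMIs) for CMO311, against 83.9% of Meis2 cells with Fgf8 and 41.6% of all kept cells. For CMO312 (478 UMIs) 123 members did (35.2%), against 20.8% of Meis2 cells with Fgf8 and 41.2% of all kept cells. The higher CMO311 count is thus not particular to these cells. No cause was tested.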

How the results depend on the processing

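Counts depend on the rule and the minimum level. With Meis2 at 1 UMI or more, the members were 5.74% of kept cells, with 63 genes higher and 19 lower against all other kept cells and 131 higher and 0 lower against cells at 0 UMIs of both. With Meis2 at 3 UMIs or more they were 1.25%, with 92 and 116 genes lower against these sets. Read after thinning to 5000 UMIs they were 1.46%, with 75 and 90 lower. Without called doublets they were 1.83%, with 97 and 137 genes lower, and against Meis2 cells with Fgf8 290 were higher and 55 lower. With both limits at 0 UMIs they were 1.55%. A pseudocount of 5 CPM left 20 genes lower against Meis2 cells with Fgf8 and 28 against cells at 0 UMIs of both. With no minimum level, 846 genes were higher and 407 lower against all other kept cells, 934 and 278 against Meis2 cells with Fgf8, and 1211 and 421 against cells at 0 UMIs of both. With 50 CPM these were 132 and 17, 53 and 19, and 186 and 27. Without members of 6 or more naive UMIs, an alternative added after seeing the data, the members were 1.62%, with 458 higher and 153 lower against all other kept cells, 20 lower against Meis2 cells with Fgf8, and 601 and 193 against cells at 0 UMIs of both; Zfp42 turned to -0.70. Without members of 10 or more neuron UMIs, added likewise, Dcc turned to -0.43. Zfp42 and Dcc stand in the lists by which these members were left out, and only members were left out. Both falls were therefore set by the choice of cells. Shares thinned to 5000 UMIs and not thinned were 15.5% and 22.1% for Sox1, 39.5% and 49.3% for Meis1 and 30.0% and 40.4% for Crabp2, and 30.1% for Fabp7 not thinned. The cause of these shifts was not tested, apart from the depth that thinning sets.

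Of 19 leading genes against all other kept cells other than Meis2, all 19 kept their sign and 18 stayed 2-fold under every alternative. Of 15 higher genes against Meis2 cells with Fgf8, 14 kept their sign and 13 stayed 2-fold; of 14 lower ones other than Fgf8, 14 and 7 did. These genes were picked for their ratios in the same cells, and a change of the minimum level cannot move a ratio. The counts of genes that kept their sign are therefore description only. No paired analysis was possible because the cells form 1 pooled library.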

Other observations

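Tmsb4x, which encodes an actin-binding peptide and was singled out after its values were seen, separated the 2 sets of Meis2 cells at a high level. It stood at 2784 CPM (2719 to 2850) in Meis2 cells without Fgf8, against 844 CPM (822 to 867) in Meis2 cells with Fgf8, 2356 CPM in cells at 0 UMIs of both and 5692 CPM in collagen cells. After thinning to 2000 UMIs it was found in 85.6% of Meis2 cells without Fgf8, 60.3% of Meis2 cells with Fgf8 and 88.1% of cells at 0 UMIs of both. Among the members it stood at 2129 CPM with 0 early neural UMIs, 2368 CPM with 1 or 2 and 4699.6 CPM with at least 3.

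Greb1l, also singled out after its values were seen, was shared by both sets, at 167 CPM in Meis2 cells without Fgf8, 150 CPM in Meis2 cells with Fgf8 and 14.0 CPM in cells at 0 UMIs of both.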
